A study of Homo sapiens with 16 samples.

Results

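The genes described here are the clustered histone genes, which were counted in poly-A selected RNA of HAP1 cells. They were chosen as every entry of the count table whose symbol begins with HIST1H, HIST2H, HIST3H or HIST4H, without numbered copies of a symbol. That gave 73 genes of 33121 entries: 6 of class H1, 18 of H2A, 20 of H2B, 14 of H3 and 15 of H4. Of the 73 genes, 11 were detected at a mean of 10 counts or more over all 16 libraries, which is 15.1%, against 45.6% of all entries (15100 genes).

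HAP1 is an established near-haploid human line derived from a leukaemia line. The 16 libraries formed 4 groups of 4. In 1 experiment, cells with SLC30A10 deleted, the gene of a manganese exporter, were set against controls with the gene intact. In the other, a line lacking a different gene (the second knockout) was set against its own controls (the second control set). By the labels, the controls of both experiments are 1 line and each deletion is a line of its own, with no treatment and no number of clones. They do not say whether replicates were separate cultures, so the p-values measure the spread between these libraries, which may be technical.

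Clustered histone genes are also called replication-dependent. They encode the core histones H2A, H2B, H3 and H4, around which DNA is wrapped, and the linker histone H1, and they are transcribed mainly in S phase at a nuclear structure called the histone locus body. Their messages normally end in a short stem-loop, cut by a complex with the U7 small nuclear RNA and bound by SLBP, in place of a poly-A tail, so poly-A selection captures few of them. Some of these genes can also give polyadenylated transcripts that run past the stem-loop. Replication-independent histone genes such as H3F3A lie elsewhere and make ordinary polyadenylated messages.

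The stem-loop is shown for 7 of the tested genes, because it is the 3′ end that poly-A selection passes over. The sequences come from the GENCODE release 29 transcripts (build GRCh38), in transcript sense. Capitals mark the 16-base stem-loop and lower case marks 5 bases on each side.
HIST2H2BE: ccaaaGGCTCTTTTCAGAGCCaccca
HIST3H2A: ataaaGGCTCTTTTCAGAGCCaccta
HIST1H2AG: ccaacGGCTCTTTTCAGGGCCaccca
HIST2H2AA4: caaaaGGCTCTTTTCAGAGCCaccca
HIST2H2BC: ccaaaGGCTCTTTTCAGGGCCattta
HIST1H3H: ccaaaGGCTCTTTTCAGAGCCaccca
HIST1H4I: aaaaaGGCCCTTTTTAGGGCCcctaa
In HIST2H2BE the annotated transcript runs 1729 bases past the stem-loop, and in HIST1H2AG it runs 1761 bases past it. In HIST2H2AA4 the transcript ends 35 bases past the stem-loop. Over all 73 genes the stem-loop was found in the model of 33, and the models of 24 of these ran at least 100 bases past it. Another 33 genes have models that hold coding sequence alone, so no stem-loop can be read from them; HIST1H2BK, HIST1H1C and HIST1H2AM are among these.

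A poly-A signal (AATAAA or ATTAAA) lay in the last 50 bases of an annotated transcript for 8 of the 11 detected genes and for 16 of the 62 genes under the limit. Models of coding sequence alone made up 3 of the 11 and 30 of the 62. Which genes have a model that goes beyond the coding sequence therefore moves with detection, and its part in the counts of poly-A signals was not tested.

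The promoters of 4 genes whose counts changed are shown to give the sequence at their start sites: HIST1H2BK (chr6:27146809-27147108, minus strand), HIST1H1C (chr6:26056421-26056720, minus strand), HIST1H2AG (chr6:27132793-27133092, plus strand) and HIST1H3H (chr6:27809801-27810100, plus strand). They are RefSeq sequences of assembly GRCh38.p14 from 250 bases before to 50 after the annotated start. Capitals mark the TATA box as TATAAA, the CAAT box as the letters CCAAT, and the octamer, bound by OCT1, as ATTTGCAT. Both strands were searched and overlapping matches run together.
HIST1H2BK: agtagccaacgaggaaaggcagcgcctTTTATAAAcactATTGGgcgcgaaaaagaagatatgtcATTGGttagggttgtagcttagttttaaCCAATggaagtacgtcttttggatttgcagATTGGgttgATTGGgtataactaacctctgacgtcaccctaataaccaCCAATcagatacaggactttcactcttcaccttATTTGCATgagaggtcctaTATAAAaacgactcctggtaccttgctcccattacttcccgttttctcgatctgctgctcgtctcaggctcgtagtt
HIST1H1C: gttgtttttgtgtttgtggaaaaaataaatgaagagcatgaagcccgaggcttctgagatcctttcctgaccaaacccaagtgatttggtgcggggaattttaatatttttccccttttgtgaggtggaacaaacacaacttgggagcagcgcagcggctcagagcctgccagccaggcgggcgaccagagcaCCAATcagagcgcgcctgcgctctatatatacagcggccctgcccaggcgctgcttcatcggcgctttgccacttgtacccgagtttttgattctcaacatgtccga
HIST1H2AG: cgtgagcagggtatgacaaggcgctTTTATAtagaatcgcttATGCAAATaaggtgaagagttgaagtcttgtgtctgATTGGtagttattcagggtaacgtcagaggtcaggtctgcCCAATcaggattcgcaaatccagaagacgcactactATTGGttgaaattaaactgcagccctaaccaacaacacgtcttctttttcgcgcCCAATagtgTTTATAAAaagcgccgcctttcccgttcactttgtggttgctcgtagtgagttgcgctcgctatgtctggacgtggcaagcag
HIST1H3H: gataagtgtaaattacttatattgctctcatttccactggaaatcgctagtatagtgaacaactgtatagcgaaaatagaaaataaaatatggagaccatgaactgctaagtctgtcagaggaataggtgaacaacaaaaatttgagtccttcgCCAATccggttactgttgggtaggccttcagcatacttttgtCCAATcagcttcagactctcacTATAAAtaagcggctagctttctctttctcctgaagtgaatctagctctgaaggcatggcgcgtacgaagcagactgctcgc
RefSeq promoters were matched for 60 of the 73 genes. TATAAA was in 40 of the 60 (66.7%), against 12.0% of all 27305 RefSeq promoters. CCAAT was in 50 of the 60, against 35.7% of all promoters. The octamer was in 21 of the 60, against 1.80%, and its matches lay mostly in 2 classes. It was in 11 of 16 H2A, 9 of 13 H2B, 1 of 12 H3, 0 of 6 H1 and 0 of 13 H4 promoters. Windows of neighbouring genes can overlap, so 1 match can count for an H2A and an H2B gene alike. The octamer shown for HIST1H2AG also lies in the HIST1H2BJ window (chr6:27132746-27133045), read on the other strand. The H3 promoter with a match, of HIST1H3D, is the same window as that of the H2A gene HIST1H2AD. CCAAT was in 3 of 13 H4 promoters and in every matched promoter of the other classes. A match describes the letters in the window and is not evidence of binding.

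Library totals lay between 16058856 and 16648151 counts, so 3 counts, the limit that a count of 0 allows, corresponded to 0.180 to 0.187 CPM (counts per 1000000 of the scaled library). Such limits cover counting error only. Counts of SLC30A10 were 11, 5, 8 and 3 in the libraries labelled SLC30A10 knockout and 8, 6, 8 and 9 in their controls. These groups overlapped and the gene was not tested, so its RNA does not check the labels, and every direction below rests on them. Of the markers used to check the cell line, the 7 haematopoietic genes summed to at most 0.548 CPM in any library, with 2 of them at 0 in all libraries. The 5 fibroblast genes summed to 29.5 to 42.8 CPM, with COL1A1 alone passing edgeR's filter and called in neither knockout by edgeR. DESeq2 called 1 fibroblast gene lower with SLC30A10 deleted, COL3A1, at 0 counts in every knockout library and 4 to 9 in the control. The 4 epithelial genes summed to 37.0 to 64.0 CPM; of 3 tested, 2 rose and 1 fell with SLC30A10 deleted, and 2 fell in the second knockout, and their part in the results below was not tested.

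The clustered histone genes took up little of each library. Their counts summed to 794 to 898 in a library, which is 0.00481% to 0.00540% of all counts (median 0.00502%). Set against the 12 replication-independent histone genes, they amounted to 2.03% to 2.44% of those genes' counts, without a correction for length. Of the 73 genes, 26 had a mean under 1, among them 10 with 0 counts in every library, and 36 had a mean from 1 to under 10.

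One H2B gene held a large part of the reads. H2B genes carried 59.7% of the 13221 counts, H2A genes 23.5%, H1 genes 5.87%, H3 genes 5.51% and H4 genes 5.38%. HIST1H2BK alone carried 34.9% of all counts and 58.4% of those of H2B, and HIST1H1C carried 82.9% of those of H1. The HIST1 cluster (56 genes; chromosome 6, 25726132 to 27893843) gave 64.9% of the counts, the 13 HIST2 genes on chromosome 1 gave 26.5%, the 3 HIST3 genes on chromosome 1 gave 8.46%, and the single HIST4 gene on chromosome 12 gave 0.106%.

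Detection was uneven between classes. At the limit of 10 counts, 6 of 18 H2A genes, 4 of 20 H2B genes and 1 of 6 H1 genes were detected, and 0 of 14 H3 and 0 of 15 H4 genes. In order of mean count the 11 genes were HIST1H2BK (288), HIST2H2BE (84.4), HIST3H2A (66.6), HIST2H2BC (41.0), HIST1H1C (40.2), HIST1H2BD (27.0), HIST2H2AA3 (25.8), HIST2H2AA4 (25.1), HIST1H2AG (19.1), HIST1H2AM (15.6) and HIST1H2AC (14.7). Of these, HIST2H2BC is annotated as a transcribed pseudogene and the others as protein-coding. The last genes inside the limit were HIST1H2AM and HIST1H2AC, and the first outside it were HIST1H3G (9.69) and HIST1H4I (9.06). With a mean of 5 counts as the limit, 28 genes were detected, so that many lay just under it.

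**Figure D1:**
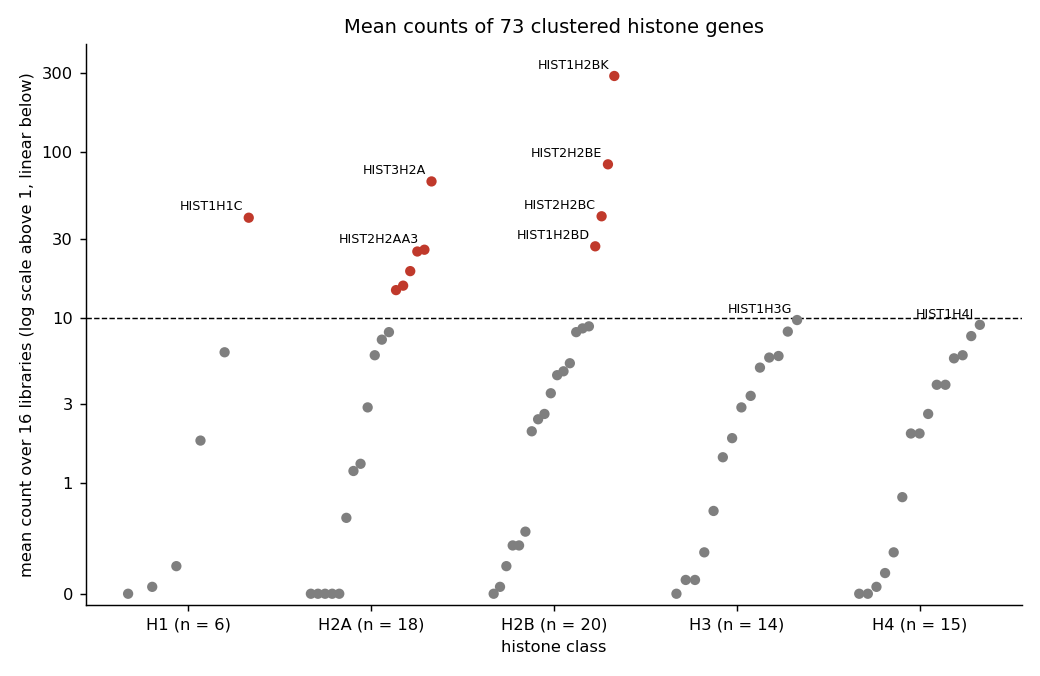
Mean count over 16 libraries for the clustered histone genes by class, on a log axis with a linear part at the lowest counts, with the limit of 10 counts as a dashed line. HIST1H2BK stands at 288 counts, and no H3 or H4 gene reaches the limit.

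Levels per length depended on the gene model and on whether exon or whole span was taken as the length. A span is the whole stretch from start to end, with any introns, so these lengths are not alike. Per kilobase of GENCODE exon, HIST1H2BK stood at 46.3 CPM per kb and HIST3H2A at 4.55. Per kilobase of the RefSeq gene span, HIST1H2BK stood at 2.06 and HIST3H2A at 7.98, because RefSeq gives HIST1H2BK a span of 8566 bases and GENCODE gives it 381 bases of exon. HIST1H1C (3.83 and 3.37 CPM per kb) and HIST2H2BE (2.35 and 2.32) changed little between these lengths. The order of HIST1H2BK among these genes is thus not settled without the authors' annotation.

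Some of these counts cannot be assigned to a single gene. HIST2H2AA3 and HIST2H2AA4 share 100% and 96.8% of their 100-base stretches with other members, 100 bases being the read length, and 94.9% of those of HIST2H4A are shared with HIST2H4B. In HIST1H2AM 84.0% are shared with the overlapping HIST1H3J. The RefSeq span of HIST1H2BK contains HIST1H4I on the opposite strand, and use of strand in counting is not given in the sources used here. The RefSeq span of HIST2H4B contains HIST2H2BC on the same strand and HIST2H2AA4 on the opposite strand. In GENCODE, HIST2H2BC also overlaps HIST2H2BD on the opposite strand. Values of these genes are therefore uncertain.

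Differences between groups were tested with edgeR's quasi-likelihood test over all 15569 genes that passed its filter on low counts, with Benjamini-Hochberg adjustment and an adjusted p under 0.05 as the threshold. Of the 73 genes 19 passed the filter: 1 of H1, 7 of H2A, 7 of H2B, 2 of H3 and 2 of H4. The counts below refer to these 19, since the other 54 were too low to test.

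With SLC30A10 deleted, 2 of the 19 genes rose and 5 fell. The linker histone gene HIST1H1C and the H2B gene HIST1H2BK rose. HIST2H2BC, the H2A genes HIST2H2AA4 and HIST1H2AG, the H3 gene HIST1H3H and the H4 gene HIST1H4I fell. The 7 genes are 36.8% of those tested, and 41.4% of all tested genes were called in this comparison, 21.2% higher and 20.2% lower, so the share called is near the background. The median log2 fold change of the 19 was -0.30, with 15 of them negative, against a median of -0.00479 over all tested genes. In HIST1H3H, HIST1H4I and HIST2H4A no SLC30A10 knockout library reached 10 counts. These genes passed the filter only with libraries of the SLC30A10 control. The filter thus favoured falls in them. HIST1H2AK (10, 8, 5 and 3 counts against 8, 11, 14 and 9) also needed control libraries to pass, beside others. So did HIST1H2BJ (7, 14, 10 and 14 counts against 8, 8, 14 and 18). The median and the 15 negative values include all of these genes. Groups did not overlap for 6 of the 19. The share of all tested genes without overlap was not computed, so this count has no background.

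HIST1H1C encodes a somatic linker histone. It had 48, 42, 58 and 63 counts in the SLC30A10 knockout and 43, 27, 27 and 34 in its control. The knockout libraries were the higher ones, with the lowest of them just under the highest control. In CPM this was 3.27 ± 0.584 against 1.99 ± 0.463 (SD, n = 4 each). The log2 fold change was 0.71 ± 0.17 (SE; edgeR adjusted p = 0.00136).

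HIST1H2BK encodes a core histone of class H2B and had the most counts of the 73. It had 305, 336, 311 and 325 counts in the SLC30A10 knockout and 249, 259, 288 and 244 in its control. Every knockout library lay above every control library. Its level was 19.8 ± 0.932 CPM against 15.8 ± 1.20 CPM (SD, n = 4 each), and the log2 fold change was 0.32 ± 0.07 (SE; edgeR adjusted p = 0.000429).

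HIST2H2BC, the transcribed pseudogene, went the other way. It had 42, 23, 29 and 27 counts in the SLC30A10 knockout and 49, 43, 56 and 45 in its control, without overlap. The log2 fold change was -0.65 ± 0.20 (SE; edgeR adjusted p = 0.0105). It starts 124 bases from HIST2H2AA4, which is transcribed in the opposite direction. HIST2H2AA4 had 22, 24, 13 and 15 counts against 32, 29, 26 and 28, also without overlap, and a log2 fold change of -0.61 ± 0.23 (SE; edgeR adjusted p = 0.0366). Its near-identical copy HIST2H2AA3 had a log2 fold change of -0.43 ± 0.23 (SE; edgeR adjusted p = 0.134) and was not called.

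HIST1H2AG, a core H2A gene, had 10, 17, 10 and 23 counts in the SLC30A10 knockout and 27, 22, 27 and 24 in its control. The groups overlapped through 1 knockout library. The log2 fold change was -0.71 ± 0.26 (SE; edgeR adjusted p = 0.0318). HIST1H2BJ, which starts 292 bases from it in the opposite direction, had 7, 14, 10 and 14 counts against 8, 8, 14 and 18, and was not called (log2 fold change -0.07 ± 0.30, SE; edgeR adjusted p = 0.881).

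The H3 and H4 genes that changed were counted in few reads. They and HIST2H4A passed the filter only with SLC30A10 control libraries, which favoured a fall and a lack of overlap. HIST1H3H had 3, 8, 5 and 7 counts in the SLC30A10 knockout and 13, 11, 11 and 10 in its control, with a log2 fold change of -0.93 ± 0.33 (SE; edgeR adjusted p = 0.0247). HIST1H4I had 6, 5, 7 and 4 counts against 10, 8, 17 and 13, with a log2 fold change of -1.08 ± 0.39 (SE; edgeR adjusted p = 0.0275). In both genes every knockout library lay under every control library. HIST2H4A did not overlap either, with 9, 3, 9 and 6 counts against 12, 11, 14 and 10, but was not called (log2 fold change -0.76 ± 0.34, SE; edgeR adjusted p = 0.0769).

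The calls differed in how they held. HIST1H1C, HIST1H2BK and HIST2H2BC were called in each of the 16 fits that left out 1 library and by the DESeq2 Wald test, which called these 3 alone. HIST2H2AA4 lost its call without SLC30A10 knockout replicate 3 or 4 or SLC30A10 control replicate 1, 2 or 4 (edgeR adjusted p = 0.0517 to 0.133). HIST1H2AG lost it without SLC30A10 knockout replicate 1 or 3 or SLC30A10 control replicate 1 or 3 (edgeR adjusted p = 0.0659 to 0.117). HIST1H3H lost it without SLC30A10 knockout replicate 1 or 3 or SLC30A10 control replicate 1 (edgeR adjusted p = 0.0624 to 0.115). HIST1H4I lost it without SLC30A10 knockout replicate 2 or 4 or SLC30A10 control replicate 3 or 4 (edgeR adjusted p = 0.0540 to 0.108). The number of genes called was 4 without SLC30A10 knockout replicate 3 and 4 without SLC30A10 control replicate 1.

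**Figure D2:**
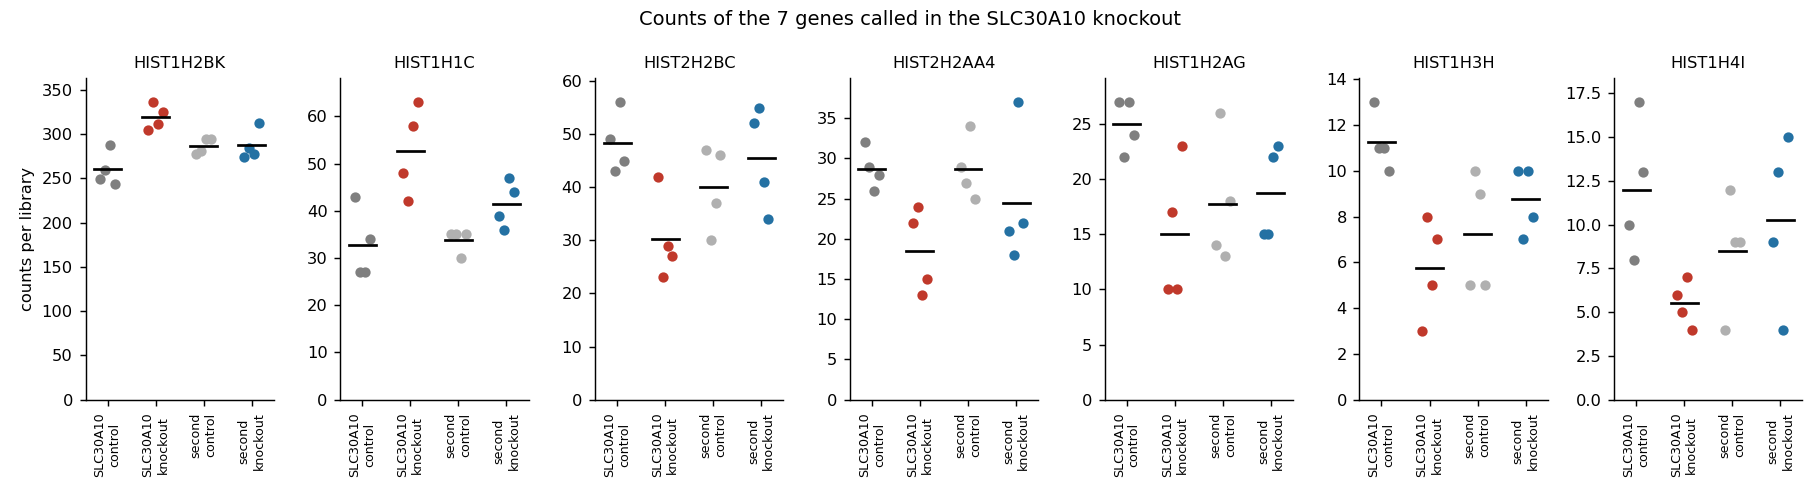
Counts per library of the genes called in the SLC30A10 knockout, by group, each point a library and each line a mean. HIST1H1C and HIST1H2BK lie higher in the SLC30A10 knockout than in its control and the other genes lower, with overlap for HIST1H1C and HIST1H2AG.

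The 2 abundant genes HIST2H2BE and HIST3H2A were not called. HIST2H2BE, which can be transcribed outside S phase, had 85, 83, 95 and 85 counts in the SLC30A10 knockout and 76, 74, 70 and 98 in its control, a log2 fold change of 0.15 ± 0.13 (SE; edgeR adjusted p = 0.367). HIST3H2A had 62, 67, 68 and 55 counts against 63, 77, 65 and 74, a log2 fold change of -0.12 ± 0.14 (SE; edgeR adjusted p = 0.534). Both groups overlapped in each gene. HIST1H2BD had 31 and 33 counts in a pair of knockout libraries and 11 and 14 in the other two. Its variance in that group was 5.94 times its mean, the largest among the 76 sets of 4 libraries of the tested genes, whose median ratio was 0.991.

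In the second knockout no clustered histone gene was called. Of the 19 tested, 0 passed the threshold with edgeR, 0 had an unadjusted p under 0.05, and 0 were called by DESeq2, where 13.7% of all tested genes were called with edgeR. The median log2 fold change was 0.06. HIST1H1C had 39, 36, 47 and 44 counts against 35, 35, 30 and 35, so the groups did not overlap, and a log2 fold change of 0.31 ± 0.18 (SE; edgeR adjusted p = 0.282). HIST1H2BK had 274, 284, 278 and 313 counts against 278, 281, 294 and 295, with overlap, and a log2 fold change of 0.01 with an interval of -0.12 to 0.15.

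**Figure D3:**
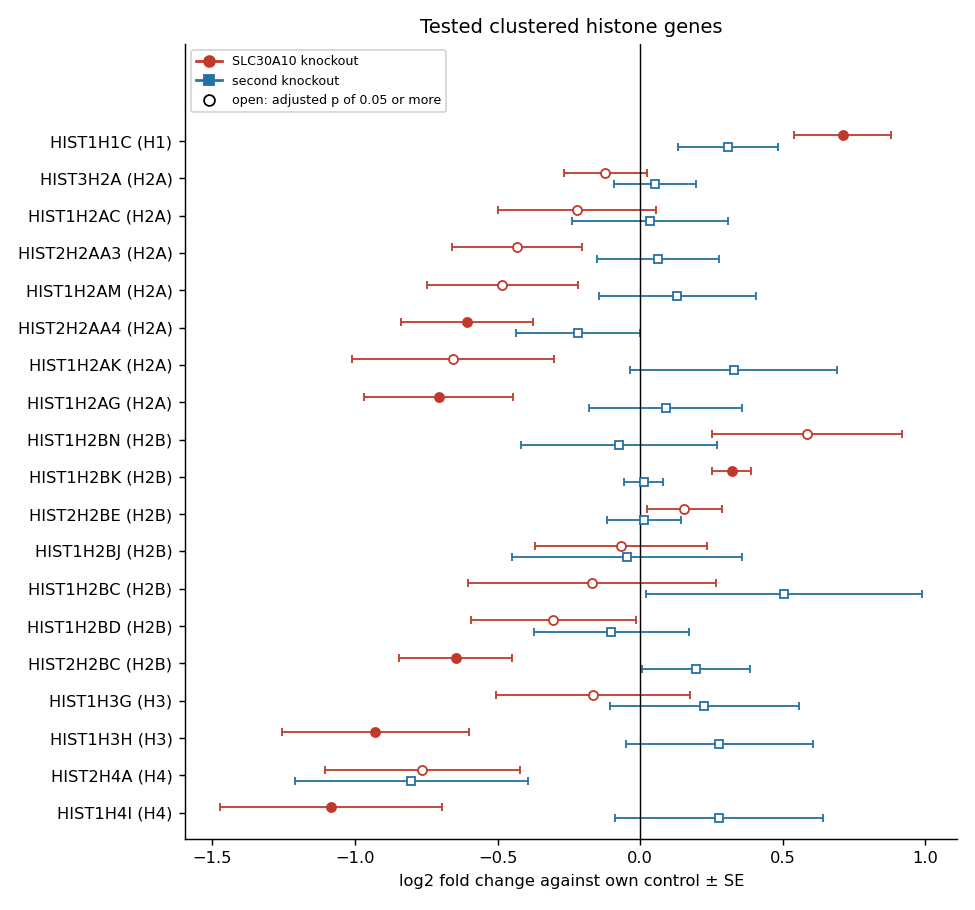
Log2 fold change with its SE for the 19 tested genes in the SLC30A10 knockout (circles) and the second knockout (squares), each against its own control; filled points have an adjusted p under 0.05. The 7 filled points all belong to the SLC30A10 knockout.

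The difference between both knockout effects was tested directly. It was called for 2 of the 19 genes, where 31.3% of all tested genes were called. HIST1H2BK differed by 0.31 ± 0.10 on the log2 scale (SE; edgeR adjusted p = 0.0155), and HIST2H2BC by -0.84 ± 0.27 (SE; edgeR adjusted p = 0.0201). HIST2H2BC had 52, 55, 41 and 34 counts in the second knockout and 47, 30, 37 and 46 in its control, which overlapped. Its difference lost the call without SLC30A10 knockout replicate 2 or second knockout replicate 2 (edgeR adjusted p = 0.0510 and 0.0515). For HIST1H1C the difference of 0.40 was not called, with an interval of -0.08 to 0.88, and the differences of HIST1H3H and HIST1H4I had edgeR adjusted p = 0.0524 and 0.0544.

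The control sets are the same line by the labels, and 39.3% of all tested genes were called between them. Of the 19 clustered histone genes, 1 was called. HIST1H2BJ had 8, 8, 14 and 18 counts in the SLC30A10 control set and 6, 6, 5 and 8 in the second control set, and these overlapped at 8. No library of the second experiment reached 10 counts of this gene. It passed the filter only with libraries of the SLC30A10 experiment, which favoured a higher value in the SLC30A10 control set. The log2 fold change was 0.93 ± 0.34 (SE; edgeR adjusted p = 0.0333), and the call was lost without SLC30A10 control replicate 3 or 4 or second control replicate 1, 2 or 3 (edgeR adjusted p = 0.0643 to 0.151). HIST1H3H had 5, 10, 9 and 5 counts in the second control set, under or level with the lowest of the SLC30A10 control set, and a log2 fold change between the sets of 0.63 (edgeR adjusted p = 0.122). When both control sets were pooled, an alternative chosen after seeing the data, HIST1H1C, HIST1H2BK, HIST2H2AA4 and HIST2H2BC were called in the SLC30A10 knockout and HIST1H2AG, HIST1H3H and HIST1H4I were not.

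Summed by class, H1 and H2B had higher means and H2A, H3 and H4 lower means in the SLC30A10 knockout, and the direction of H2B rested on HIST1H2BK: without it the log2 ratio was -0.064. No p-value is given for these sums, since their members were chosen. All 73 genes summed to 50.9 ± 0.943 CPM in the SLC30A10 knockout and 51.3 ± 2.83 in its control (SD, n = 4 each), with overlap. H1 was 3.93 ± 0.637 CPM against 2.43 ± 0.525, and H2B was 32.1 ± 0.599 against 28.7 ± 2.40, each with overlap. H2A was 10.4 ± 0.659 CPM against 13.3 ± 0.235, without overlap.

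The H3 and H4 sums were lower as well. The 14 H3 genes had 36, 38, 30 and 42 counts in the SLC30A10 knockout and 59, 57, 55 and 59 in its control. The 15 H4 genes had 36, 31, 38 and 38 counts against 52, 44, 72 and 50. Neither class overlapped, and the log2 ratios of the mean CPM were -0.63 for H3 and -0.58 for H4. The sum of the 62 genes under the detection limit stood at 10.4 ± 0.531 CPM against 12.7 ± 1.52 (SD, n = 4 each), also without overlap.

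The control sets differed from each other in the H3 sum. H3 was 3.50 ± 0.117 CPM in it and 2.56 ± 0.417 in the second control set (SD, n = 4 each), without overlap, and the genes under the limit were 12.7 ± 1.52 CPM against 9.63 ± 0.855, without overlap. H4 was 3.32 ± 0.744 CPM against 2.65 ± 0.262 and H2A 13.3 ± 0.235 against 11.7 ± 1.65, each with overlap. The SLC30A10 knockout, at 2.26 ± 0.323 CPM for H3, was thus nearer to the second control set than to its own. H1 in the second knockout was 3.16 ± 0.331 CPM against 2.35 ± 0.204, without overlap, and every other class overlapped its control.

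**Figure D4:**
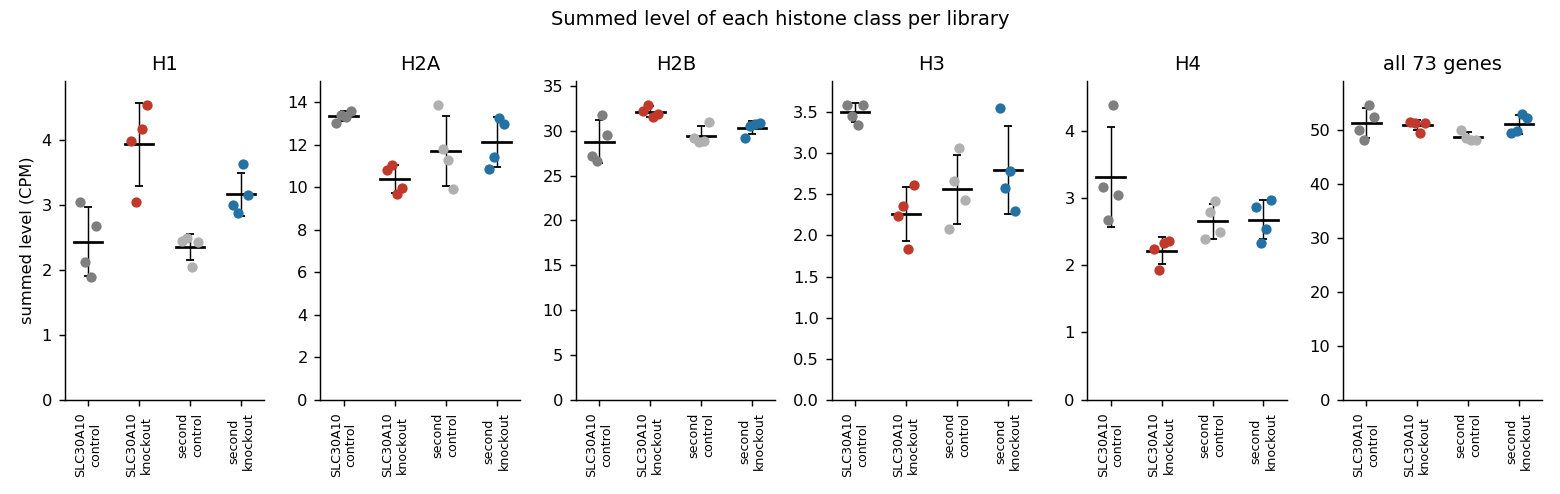
Summed CPM of the clustered histone genes per library, for all genes and for each class, by group; each point is a library, horizontal lines are means and bars are SD. H2A, H3 and H4 lie lower in the SLC30A10 knockout than in its control without overlap, and the sums of all 73 genes overlap.

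RNAs without a poly-A tail were summed as a possible measure of unselected RNA in each library, and whether they measure it was not tested. Of the 16 on the list, 14 were in the table. They summed to 8.96 to 13.0 CPM in the SLC30A10 knockout, 9.89 to 13.6 in its control, 6.86 to 7.04 in the second knockout and 7.11 to 8.92 in the second control set. Of the 4 tested, 0 were called in either knockout with edgeR, 0 had an unadjusted p under 0.05, and DESeq2 called 0 of the list. The sums overlapped between the SLC30A10 knockout and its control, and those of the second knockout lay wholly below those of its control. Both SLC30A10 groups lay above both groups of the second experiment. The small nucleolar RNA gene SNORA73A made up much of that gap, with means of 5.63 and 6.16 CPM in the SLC30A10 knockout and its control against 2.85 and 3.18 in the second knockout and its control. It was the 1 gene of the 4 called between the control sets (log2 fold change 0.95 ± 0.14, SE; edgeR adjusted p = 9.62e-06). RN7SL1 (0.26), RN7SK (0.60) and RN7SL2 (-0.13) were not called between them (edgeR adjusted p = 0.549, 0.272 and 0.713). The part of unselected RNA in the histone values was not tested.

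Of 11 replication-independent histone genes tested, 4 rose and 3 fell with SLC30A10 deleted, which is 63.6% against 41.4% of all tested genes. The median log2 fold change of the 11 was -0.03, and H1FX, H2AFX, H3F3B and H3F3C were not called. CENPA, the centromeric H3 variant, rose (log2 fold change 0.40 ± 0.05, SE; edgeR adjusted p = 5.3e-07), as did H2AFY, a macroH2A gene (0.28 ± 0.03; edgeR adjusted p = 2e-07). H2AFJ, an H2A variant gene, had 0 to 1 counts in the SLC30A10 knockout and 170 to 201 in its control, at least 62.6-fold lower with 3 counts per library as the floor. It lies on chromosome 12 (14774405 to 14778002), next to the HIST4 gene. Of the 11, 1 rose and 2 fell in the second knockout, which is 27.3% against 13.7% of all tested genes. These were H2AFY2 at 0.88 ± 0.05 (SE; edgeR adjusted p = 6.98e-13), H2AFJ at -0.30 ± 0.09 (edgeR adjusted p = 0.0225) and H3F3B at -0.13 ± 0.04 (edgeR adjusted p = 0.0319).

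Of the 8 genes for transcription at the histone locus body, 0 rose and 1 fell in the SLC30A10 knockout. The share called was 12.5%, against 41.4% of all tested genes. The gene that fell was POU2F1, which encodes the octamer-binding factor OCT1 (log2 fold change -0.25 ± 0.05, SE; edgeR adjusted p = 0.000196). NPAT, the scaffold of the body, was not called (0.02; edgeR adjusted p = 0.856). Of the 8, 0 were called in the second knockout with edgeR and 0 with DESeq2, and 2 had an unadjusted p under 0.05.

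Of the 12 genes of histone pre-mRNA 3′ processing, 2 rose and 2 fell in the SLC30A10 knockout. The share called was 33.3%, against 41.4% of all tested genes. ZNF473, a part of the U7 pathway, rose (log2 fold change 0.40 ± 0.07, SE; edgeR adjusted p = 5.64e-05). CPSF2 and SYMPK, of the cleavage complex, fell by 0.17 and 0.18 on the log2 scale (edgeR adjusted p = 0.00097 and 0.000782). SLBP, which binds the stem-loop, was not called (0.09; edgeR adjusted p = 0.0903). ZNF473 was also the 1 gene of the 12 that rose in the second knockout (0.24 ± 0.07, SE; edgeR adjusted p = 0.0299). The share called there was 8.3%, against 13.7% of all tested genes.

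Of 4 genes of histone mRNA decay, ERI1, the exonuclease that trims the stem-loop end, rose in the SLC30A10 knockout from 32.7 ± 1.19 to 57.4 ± 4.22 CPM (SD, n = 4 each), a log2 fold change of 0.81 ± 0.06 (SE; edgeR adjusted p = 1.09e-11). ERI1 lies on chromosome 8 (9002897 to 9100104), and the part of its position in this rise was not tested. UPF1, a helicase of mRNA decay, fell by 0.15 (edgeR adjusted p = 0.00393). Of the 4, 0 were called in the second knockout with edgeR and 0 with DESeq2, and 0 had an unadjusted p under 0.05, with ERI1 at -0.09 (edgeR adjusted p = 0.411).

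Among 19 histone chaperone genes, 6 rose and 5 fell in the SLC30A10 knockout and 0 rose and 2 fell in the second. The shares called were 57.9% and 10.5%, against 41.4% and 13.7% of all tested genes. RBBP7 (log2 fold change 0.34 ± 0.04, SE; edgeR adjusted p = 3.5e-08) and ATRX (0.39 ± 0.04; edgeR adjusted p = 3.76e-08) rose with SLC30A10 deleted, and NASP, which carries H3 and H4, fell (-0.22 ± 0.03; edgeR adjusted p = 7.45e-06). HAT1, a histone acetyltransferase, fell in the second knockout (-0.24 ± 0.05; edgeR adjusted p = 0.000656), as did NAP1L1 (-0.11 ± 0.03; edgeR adjusted p = 0.0244).

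Of 19 S phase genes, 2 rose and 7 fell in the SLC30A10 knockout, and 0 rose and 1 fell in the second. The 47.4% called with SLC30A10 deleted is near the 41.4% of all tested genes. In the second knockout 5.3% were called, against 13.7% of all tested genes. The 10 genes not called with SLC30A10 deleted were MCM2 to MCM7, PCNA, GINS1, CDC45 and E2F1. GINS2, of the replicative helicase, fell by 0.64 on the log2 scale with SLC30A10 deleted (edgeR adjusted p = 4.02e-11) and by 0.18 in the second knockout (edgeR adjusted p = 0.0138). The replication licensing genes CDT1 and CDC6 fell by 0.38 and 0.25 with SLC30A10 deleted (edgeR adjusted p = 1.61e-05 and 0.00137). PCNA was not called (-0.03; edgeR adjusted p = 0.660). The part of cell cycle in the histone values was not tested.

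The genes that lie among the HIST1 members give the level of that stretch of chromosome 6. Of these 27 genes, 15 were tested, and 3 rose and 3 fell in the SLC30A10 knockout, with a median log2 fold change of -0.000444. The 40.0% called is near the 41.4% of all tested genes. HMGN4, a nucleosome-binding protein gene, rose (0.32 ± 0.04, SE; edgeR adjusted p = 8.62e-07), as did BTN3A1 (0.60 ± 0.11; edgeR adjusted p = 7.94e-05), and HCG11 fell (-0.36 ± 0.07; edgeR adjusted p = 0.000172). HMGN4 was the 1 gene called in the second knockout, where it fell (-0.21 ± 0.04; edgeR adjusted p = 0.000846). The share called in that comparison was 6.7%, against 13.7% of all tested genes.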

How the data were processed

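Poly-A selected RNA of 16 HAP1 libraries was sequenced as paired reads of 100 bases, per the labels' protocols. The submitters' processing notes name HISAT2, featureCounts, DESeq2 and hg38 or GRCh38; their settings, the annotation and use of strand are not given in the sources used here. The authors deposited whole-number counts per gene symbol, and a normalized signal, which equals each count divided by a constant per library within 5.44e-06 and served as an alternative scaling.

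Tests used edgeR 4.0.16 (R 4.3.3) on the counts as deposited: filterByExpr (minimum count 10, minimum total 15), TMM scaling, 1 fit of all 16 libraries with 4 group means, quasi-likelihood F tests and Benjamini-Hochberg adjustment over 15569 genes at 0.05. Scaling factors lay between 0.984 and 1.01 and the common biological coefficient of variation was 0.0497. Replicate libraries differed by more than sampling noise (chi-square per degree of freedom 1.63 to 6.69). The gene deleted in the second knockout is not reported here. The procedure was tested on simulated data.

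Genes and lists were chosen with earlier results of these data known. Named are the 3 highest members of a class, the 5 largest called rises and falls, those nearest the detection limit and in each knockout up to 3 genes of a list by smallest adjusted p; NPAT, SLBP, COL3A1, HIST1H2BD, partner genes and listed genes named as not called were added after their values were seen. Alternatives were 3 other scalings, DESeq2 1.42.0, other filters and thresholds, only the libraries compared, a replicate block, summed copies (0 for these genes), pooled controls and leaving out each library. Names and positions come from GENCODE release 29 (73 genes matched) and RefSeq GRCh38.p14 (68 matched).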

Additional observations from a re-analysis of the deposited data

Results flagged for a closer look

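Among 104 sets of 4 libraries, 8 held a library whose gap to its nearest neighbour exceeded Dixon's 95% critical share of the range of the set, where chance gives 5.2. HIST1H1C had 30 counts in second control replicate 3 and 35 in each of the others (gap 0.941 of the range), and the H1 sum of that library was 2.05 CPM against 2.43 to 2.48 (0.873). HIST1H1D had 4 counts in second knockout replicate 1 and 3 in each of the others (0.966), a step of 1 count. HIST1H2AM had 21 counts in second knockout replicate 4 against 13 to 14 (0.841). HIST1H3G had 19 counts in second knockout replicate 1 against 7 to 9 (0.847), and the H2B sum of that library was 29.2 CPM against 30.6 to 30.9 (0.830). HIST2H2AA3 had 36 counts in SLC30A10 control replicate 4 against 24 to 26 (0.841). The sum of all 73 genes was 49.5 CPM in SLC30A10 knockout replicate 3 against 51.3 to 51.5 (0.908).

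The effects of both knockouts differed for HIST1H2BK, by 0.31 on the log2 scale, and for HIST2H2BC, by -0.84, each by the test of the difference itself.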

How the results depend on the processing

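The 7 clustered histone genes called in the SLC30A10 knockout became 1 at a mean count of at least 50, 2 at an adjusted p under 0.01, 3 with DESeq2, 4 with pooled controls, and 4 to 7 on leaving out a library. In the second knockout the count of 0 became 1 with pooled controls (HIST2H4A) and was 0 to 0 on leaving out a library. The 2 differences between knockouts became 1 at a mean count of at least 50 and 0 at an adjusted p under 0.01, and 2 to 5 on leaving out a library, with 4 without SLC30A10 knockout replicate 4 and 5 without second control replicate 2. The 1 call between control sets became 0 with no filter, at a mean count of at least 50, at an adjusted p under 0.01, with only the libraries compared and with DESeq2, and was 0 to 1 on leaving out a library. Where a call was lost, the cause was not tested, except that a mean count of at least 50 leaves 3 of the 19 genes.

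With the replicate number as a block the counts of calls were 7, 0, 3 and 1 in the order above. Same-numbered libraries correlated between -0.117 and 0.148 in their deviations from the group means. With 4 libraries a group, these values do not decide whether same-numbered libraries were handled together. The best partner across groups had the same number for 0 of 8 libraries of the SLC30A10 experiment, 3 of 8 of the second and 4 of 8 controls.

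Without its highest gene, the log2 ratio of summed levels in the SLC30A10 knockout was -0.19 for all genes, -0.49 for H2A and -0.064 for H2B; for H1 in the second knockout it was 1.05; between control sets it was 0.18 for all genes, 0.54 for H1 and 0.10 for H2B. A limit of 5 counts gave 28 detected genes.

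Values of uncalled genes changed sign in few cases. In the SLC30A10 knockout HIST1H2BC ranged from -0.39 to 0.17 on leaving out a library: it became 0.056 without SLC30A10 knockout replicate 4, 0.17 without SLC30A10 control replicate 3 and 0.18 with pooled controls. HIST1H2BJ ranged from -0.22 to 0.19: it became 0.10 without SLC30A10 knockout replicate 1, 0.015 and 0.19 without SLC30A10 control replicates 3 and 4, and 0.40 with pooled controls. RN7SL1 ranged from -0.022 (without SLC30A10 knockout replicate 1) to 0.52 on leaving out a library, and with pooled controls RN7SK became 0.084 and SNORA73A 0.35. In the second knockout, with pooled controls, CDK2 became 0.011 and EPCAM -0.085. The cause was not tested.

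The tested H3 and H4 genes had 3 to 19 counts a library, so counting error limits their precision.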
